A study of Homo sapiens with 11 samples.

Results

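SCNN1B, GALNT15, APLNR and AZGP1 were examined in ARPE-19 cells, a long-established human cell line from the retinal pigment epithelium (RPE), the pigmented layer behind the photoreceptors. These 4 genes, of 60605 features in the table, were chosen by their normalised read counts, for a higher level in cells carrying Oct4, Sox2 and Klf4 together (OSK) than in cells carrying 1 or more of the factors alone. Stable lines expressed an open reading frame (ORF) for 4 days before polyadenylated RNA was sequenced: GFP, a fluorescent protein and the control (3 libraries), Oct4, Sox2, Klf4 or all 3 factors (2 libraries each). The ORFs' species, the promoter that drove them, whether a line was 1 clone and whether replicates were separate cultures are not given in the labels, so p-values measure only the spread between these libraries, which may be technical. The genes had been grouped as raised by the combination only. In these libraries no single-factor rise was detected for APLNR, at 0 to 4 reads per single-factor library, where a small rise could not be seen. That description did not hold for GALNT15, which Klf4 alone also raised. For SCNN1B and AZGP1 it depended on whether GFP replicate 1 was kept.

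Oct4 (gene POU5F1), Sox2 and Klf4 are transcription factors that bind short DNA motifs and, delivered together, are known for shifting differentiated cells toward a pluripotent state. The 4 genes have unrelated products. SCNN1B encodes the beta subunit of the epithelial sodium channel, which takes up sodium across the apical membrane of tight epithelia, and GALNT15 is a member of the family of Golgi enzymes that begin mucin-type O-glycosylation. APLNR is the G protein-coupled receptor for the peptides apelin and ELABELA, best known from blood vessels and heart, and AZGP1 is a secreted glycoprotein with the fold of a major histocompatibility complex (MHC) class I heavy chain, known from secretory epithelia and fat metabolism.

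Because the delivered factors bind DNA, the 250 bases before the gene start are shown for the 3 members with an entry in the RefSeq promoter table (GRCh38.p14), 5′ to 3′ on the strand of the gene. The windows are chr16:23302052-23302301 (plus strand) for SCNN1B, chr3:16174430-16174679 (plus strand) for GALNT15 and chr7:99976032-99976281 (minus strand) for AZGP1. APLNR has no entry. Capitals mark matches to motifs written for the 3 families, searched on both strands: ATGCAAA for POU factors, CATTGT for SOX factors and CCACCC for KLF factors.
SCNN1B: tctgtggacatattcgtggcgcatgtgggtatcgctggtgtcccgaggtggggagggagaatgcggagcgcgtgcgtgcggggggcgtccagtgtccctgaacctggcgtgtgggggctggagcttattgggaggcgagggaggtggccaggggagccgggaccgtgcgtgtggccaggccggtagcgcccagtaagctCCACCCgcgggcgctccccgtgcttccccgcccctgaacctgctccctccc
GALNT15: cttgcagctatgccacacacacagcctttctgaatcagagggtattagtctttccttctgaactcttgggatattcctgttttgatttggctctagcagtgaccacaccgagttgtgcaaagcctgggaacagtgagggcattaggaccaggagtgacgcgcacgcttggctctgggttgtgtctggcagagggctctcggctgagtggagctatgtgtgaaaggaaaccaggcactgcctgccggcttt
AZGP1: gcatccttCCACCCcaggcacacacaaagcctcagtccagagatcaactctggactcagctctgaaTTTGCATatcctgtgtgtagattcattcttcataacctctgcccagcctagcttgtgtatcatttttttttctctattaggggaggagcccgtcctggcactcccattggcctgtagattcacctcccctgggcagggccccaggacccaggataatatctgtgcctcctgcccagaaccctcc
The SCNN1B window held the KLF letters once, from base 51 to base 46 before the start. The AZGP1 window held the KLF letters from base 242 to base 237 and the POU letters, printed as TTTGCAT because they lie on the opposite strand, from base 184 to base 178. The GALNT15 window held none of the 3, and no window held the SOX letters. No matches overlapped each other. Over all 35116 promoters of this length in the table, the POU letters were in 3.94%, the SOX letters in 9.29% and the KLF letters in 31.3%. A match describes letters only, and binding was not measured. The listed start of SCNN1B lies inside the span of the gene in GENCODE release 29, which places the gene at chr16:23278231-23381299, so that longer transcripts start elsewhere. The GALNT15 and AZGP1 windows also overlap the spans of their genes there, chr3:16174649-16231992 and chr7:99966720-99976157.

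Levels are given as normalised counts, taken here to be each library's reads divided by 1 factor. Totals ran from 15053300 to 19791775 recovered reads per library. GFP replicate 1 and OSK replicate 1 stood apart: 42956 and 32493 features had a read in them, against 25853 to 26971 in the 9 other libraries. Olfactory receptor genes, 405 in number and known from the nose, were read at a share of 67.7% in the former and 23.0% in the latter, and of 4.94% to 8.15% elsewhere. Changes of the 4 genes from GFP are therefore also given without GFP replicate 1, as are list counts and named calls that differ without it. Those values keep OSK replicate 1, so low OSK levels in them still include its wider range of features with a read. The delivered genes matched the labels: POU5F1 was at 67326 and 66823 in Oct4, SOX2 at 29106 and 29141 in Sox2, and KLF4 at 24205 and 22142 in Klf4. In OSK, POU5F1 was at 19020 and 19542, SOX2 at 17764 and 17582, and KLF4 at 24470 and 24202, so POU5F1 and SOX2 values in OSK lay below those of the lines with these factors alone. RPE65, the visual cycle enzyme of mature RPE, had at most 4.63 in any library, whereas MITF, a pigment cell transcription factor, had 747 to 3603 and KRT8, an epithelial keratin, had 6803 to 16617. In bulk RNA, more cells expressing a gene and more RNA per cell cannot be told apart.

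OSK exceeded GFP for all 4 genes, by 14.3-fold (SCNN1B), 50.3-fold (GALNT15), 49.4-fold (APLNR) and 41.0-fold (AZGP1) as ratios of group means. With GFP replicate 1 left out the ratios were at least 110-fold (SCNN1B, GFP set to 3 reads per library), 81.1-fold (GALNT15), at least 82.5-fold (APLNR, GFP set likewise) and 128-fold (AZGP1), so their size and order depended on that library. These are descriptions, with no test, because the OSK and single-factor libraries chose the genes and only the GFP libraries did not. For the 4 genes, comparisons between single-factor lines lie wholly within libraries that chose them, and those with GFP in part. Their p-values are therefore descriptions too. limma's test was run over 18828 genes, those that reached 10 in 2 or more libraries, and calls are at a Benjamini-Hochberg adjusted p under 0.05. In that fit 19.7% of genes were called higher in OSK than in GFP and 20% lower, and without GFP replicate 1 20.9% were called higher. The filter passed all 4 genes, and 3 of them would pass it on the other 9 libraries, APLNR being the exception, since it reached 10 in at least 2 libraries only through OSK. Both OSK libraries lay at least 2-fold above each of the 9 others for all 4 genes. That held for 0.68% of genes tested, and both OSK libraries lay above each other library by any margin for 8.14%. Nothing is read from these shares, since OSK levels chose the genes. Likewise by choice, 2 of the 4 (APLNR and AZGP1) were at least 10-fold above each single-factor library, as were 0.181% of genes tested.

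**Figure D1:**
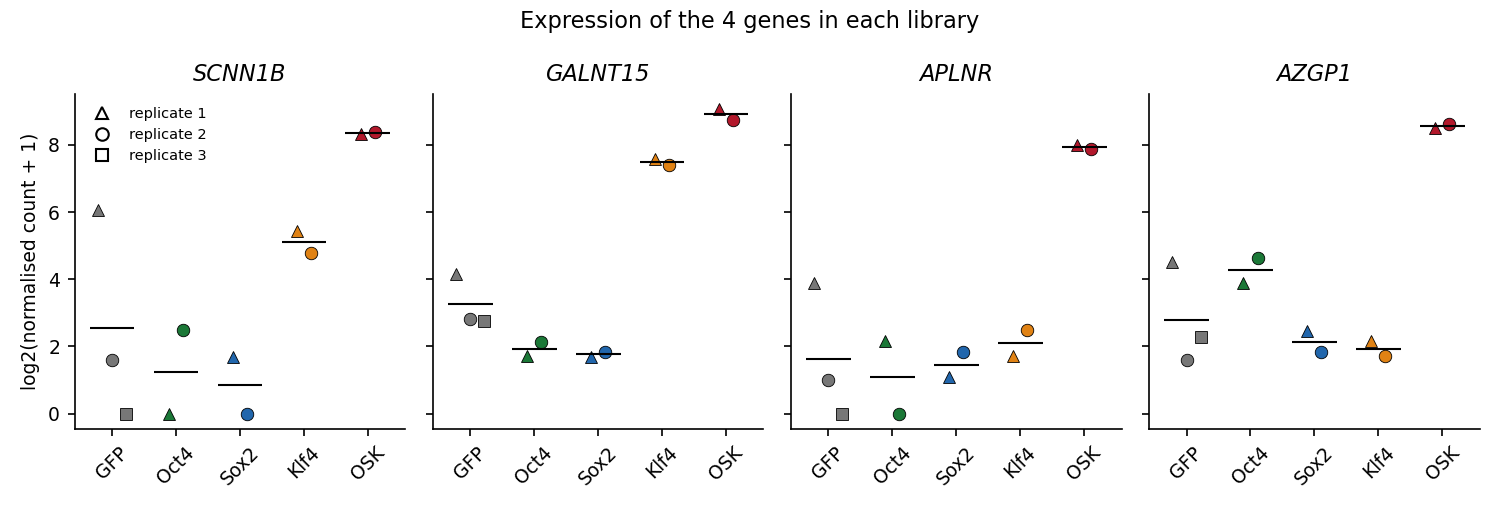
Normalised counts of the 4 genes in each of the 11 libraries, by group, as log2(value + 1), with 1 point per library and a bar at each group mean. The OSK libraries lie above all others in every panel, GFP replicate 1 lies above the other 2 GFP libraries, and Klf4 lies between GFP and OSK for GALNT15.

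APLNR was the member with no detected rise in any single-factor line. Its values were 13.9, 1.01 and 0 in GFP, 3.48 and 0 in Oct4, 1.12 and 2.57 in Sox2, 2.31 and 4.57 in Klf4, and 256 and 235 in OSK. Apart from GFP replicate 1, no library outside OSK exceeded 4.57. The 3 single-factor lines overlapped each other and the range of all GFP libraries. All Sox2 and Klf4 libraries lay above GFP replicates 2 and 3, at 1 to 4 reads. The lowest OSK library was 51.5-fold above the highest single-factor library and 16.9-fold above GFP replicate 1. On the log2(value + 1) scale, which understates the change of low values, OSK was 6.31 above GFP (SE 0.98), and 7.44 (SE 0.75) without GFP replicate 1. Neither Oct4 (-0.55, SE 0.98, adjusted p = 0.698), Sox2 (-0.17, adjusted p = 0.908) nor Klf4 (0.47, adjusted p = 0.756) passed limma's test against GFP, at levels of 0 to 4 reads where a small change was not detectable. Without GFP replicate 1 all 3 changes were positive and none passed. They were 0.58 in Oct4 (SE 0.75, limma adjusted p = 0.591), 0.96 in Sox2 (adjusted p = 0.339) and 1.6 in Klf4 (adjusted p = 0.112). The negative signs for Oct4 and Sox2 thus depended on that control library. As a description of the values that chose it, OSK was at least 71.0-fold above Oct4 and at least 82.8-fold above Sox2, with those groups set to 3 reads per library, and 71.4-fold above Klf4. The OSK mean was 35.0 times the sum of the 3 single-factor means. The gene lies at chr11:57233577-57237314 on the minus strand, and no other gene of GENCODE release 29 overlaps it.

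AZGP1 was the member with a signal in Oct4. Values were 21.9, 2.02 and 3.89 in GFP, 13.9 and 24.0 in Oct4, 4.49 and 2.57 in Sox2, 3.47 and 2.29 in Klf4, and 362 and 396 in OSK. Both Oct4 libraries lay above all Sox2 and Klf4 libraries and above GFP replicates 2 and 3, but not above GFP replicate 1. Against all 3 GFP libraries Oct4 was 1.47 higher (log2, SE 0.67) and missed the threshold (limma adjusted p = 0.10). Without GFP replicate 1, Oct4 was 2.33 higher (SE 0.49, limma adjusted p = 0.000955), a 6.42-fold ratio of means, where 20.5% of genes were called higher. Against the other single factors, Oct4 passed limma's test over Sox2 (2.13, SE 0.73, adjusted p = 0.0357, with 18% of genes called higher in Oct4) and over Klf4 (Klf4 minus Oct4 -2.33, SE 0.73, adjusted p = 0.0179, with 21.8% called higher in Oct4). The libraries on both sides helped to choose the gene, so these p-values are descriptions and no independent evidence. The call over Sox2 was lost in 8 of 21 alternatives: without any 1 of the Oct4, Sox2 or OSK libraries (limma adjusted p from 0.0644 to 0.212), with no filter (0.0976) and with DESeq2 (0.0775). The difference itself was 1.75 to 2.50 across the left-out libraries. The call over Klf4 was lost in 3, without Oct4 replicate 2 (limma adjusted p = 0.132), without Klf4 replicate 2 (0.0896) and with no filter (0.0511). Klf4 and Sox2 did not differ detectably (-0.21, SE 0.73, limma adjusted p = 0.856). OSK was 5.77 above GFP (SE 0.67), and 6.63 (SE 0.49) without GFP replicate 1. In these libraries its mean was 19.96 times that of Oct4, 107 times that of Sox2 and at least 110 times that of Klf4. Its position is chr7:99966720-99976157, minus strand. Of its 50-base transcript sequences 5.88% also occur in the pseudogene AZGP1P1, which had at most 3.97 in any library.

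GALNT15 rose with Klf4 alone. Values were 16.9, 6.07 and 5.83 in GFP, 2.32 and 3.43 in Oct4, 2.24 and 2.57 in Sox2, 192 and 168 in Klf4, and 540 and 426 in OSK. The groups formed 4 levels that did not overlap, with Oct4 and Sox2 together at the bottom, GFP above them, then Klf4 and then OSK. Klf4 was 18.8-fold above GFP (log2 4.25, SE 0.42, limma adjusted p = 1.13e-06), where 17.6% of genes were called higher and 16% lower. It was 30.3-fold above when GFP replicate 1 was left out (4.70, SE 0.36, limma adjusted p = 9.94e-09). Klf4 also exceeded Oct4 by 5.56 (SE 0.46, limma adjusted p = 7.85e-08, with 20% of genes called higher in Klf4) and Sox2 by 5.73 (adjusted p = 5.53e-08, with 20.7%). Libraries on both sides of these comparisons helped to choose the gene, so the p-values are descriptions and no independent evidence. OSK exceeded GFP by 5.66 (SE 0.42), or 6.11 (SE 0.36) without GFP replicate 1, and Klf4 by 2.68-fold, the narrowest margin of the 4 genes over a single line. Lower values than in GFP were seen with Oct4 (-1.31, SE 0.42, limma adjusted p = 0.0230) and Sox2 (-1.49, adjusted p = 0.00987), in fits that called 17.2% and 19.9% of genes lower. Both rest on 2 or 3 reads per library, and the Oct4 call was lost without GFP replicate 1 (-0.86, limma adjusted p = 0.0722) and with edgeR on recovered reads (adjusted p = 0.0531). It was also lost without Oct4 replicate 1 (0.139), and the Sox2 call without Sox2 replicate 1 (0.0572). Without GFP replicate 1 the Sox2 change was -1.03 (limma adjusted p = 0.0291). The gene lies at chr3:16174649-16231992 on the plus strand.

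SCNN1B had a lesser rise in Klf4 and the widest spread among controls. Values were 66.5, 2.02 and 0 in GFP, 0 and 4.58 in Oct4, 2.24 and 0 in Sox2, 42.8 and 26.3 in Klf4, and 319 and 335 in OSK. Klf4 lay above every Oct4 and Sox2 library and above GFP replicates 2 and 3, and GFP replicate 1 lay above Klf4. Against all GFP libraries Klf4 was 2.55 higher (log2, SE 1.25) and missed the threshold (limma adjusted p = 0.133). Without GFP replicate 1 it was 4.31 higher (SE 0.78, limma adjusted p = 0.000251), where 18.2% of genes were called higher, and at least 11.6-fold by means with GFP set to 3 reads. Klf4 also exceeded Oct4 (3.87, SE 1.36, limma adjusted p = 0.0323) and Sox2 (4.26, adjusted p = 0.0199), though these calls rested on single libraries. They also lie within libraries that helped to choose the gene, so the p-values are descriptions. Over Oct4 the call was lost in 10 of 21 alternatives, with adjusted p from 0.0537 to 0.259 without Oct4 replicate 1, either Klf4 library or either OSK library. Over Sox2 it was lost in 5, with adjusted p from 0.0570 to 0.146 without Sox2 replicate 2 or either Klf4 library. Oct4 (-1.32, limma adjusted p = 0.444) and Sox2 (-1.71, adjusted p = 0.301) did not pass against GFP. OSK was 5.80 above GFP (SE 1.25), 3.85 (SE 2.17) with DESeq2 on recovered reads and 7.56 (SE 0.78) without GFP replicate 1. As a description, OSK was 9.47-fold above Klf4.

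The level of SCNN1B in GFP replicate 1 can be set beside that of other genes that the remaining controls lacked. Of 4677 protein-coding genes with at most 2 reads in both GFP replicates 2 and 3, SCNN1B included, the median in GFP replicate 1 was 4.97 and the 99th percentile 53.9. At or above the SCNN1B value were 18, SCNN1B itself among them. The same genes had a median of 1.08 and a 99th percentile of 18.4 in OSK replicate 1, and 0 and 13.2 in OSK replicate 2. The 2 OSK values of each of the 4 members lay within 1.27-fold of each other.

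**Figure D2:**
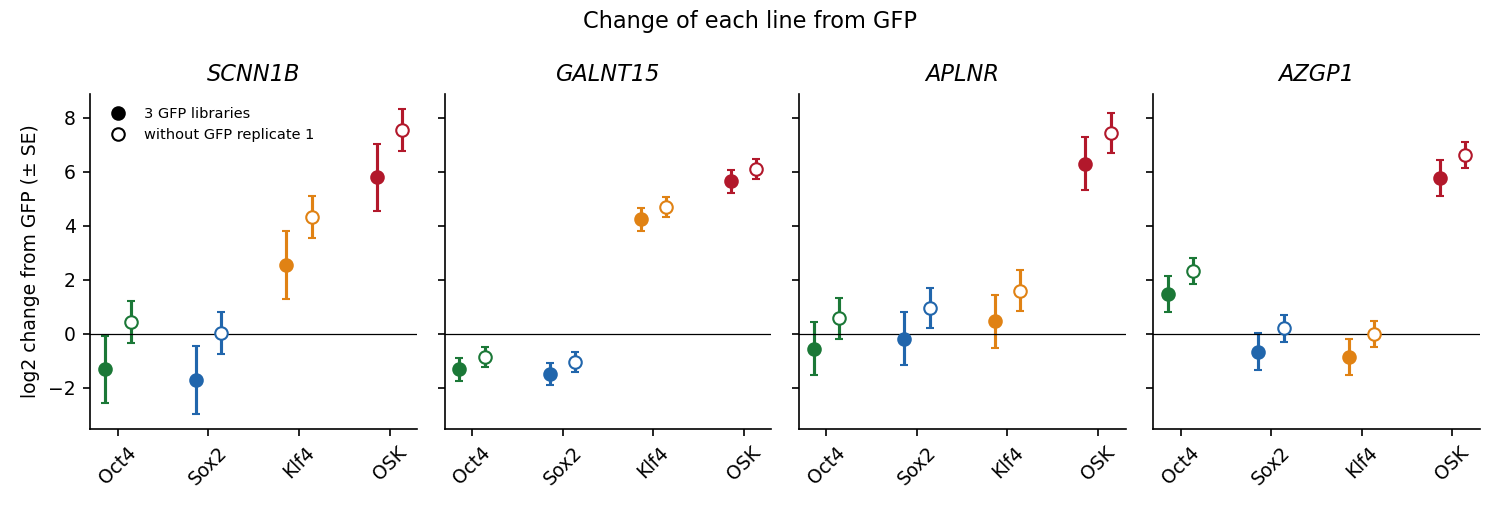
Log2 difference from GFP (log2(value + 1), mean and SE of the fit) of the 4 genes in the Oct4, Sox2, Klf4 and OSK lines, with and without GFP replicate 1. OSK is highest for all 4 genes, Klf4 is second for GALNT15 and SCNN1B, and Oct4 is second for AZGP1.

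AZGP1 had the highest level per length in OSK. Divided by exon length in GENCODE release 29, the OSK means were 140 normalised counts per kilobase for AZGP1, 83.5 for SCNN1B, 80.3 for GALNT15 and 65.7 for APLNR. On the log2(value + 1) scale, the OSK change exceeded the sum of the 3 single-factor changes by 6.57 (SE 1.95) for APLNR, 6.27 (SE 2.49) for SCNN1B, 5.81 (SE 1.34) for AZGP1 and 4.21 (SE 0.85) for GALNT15. Leaving out GFP replicate 1 made them 4.31 (SE 1.5) for APLNR, 2.75 (SE 1.56) for SCNN1B, 4.09 (SE 0.98) for AZGP1 and 3.30 (SE 0.73) for GALNT15. With edgeR TMM on recovered reads they were 8.84 for APLNR, 10.8 for SCNN1B, 7.34 for AZGP1 and 5.02 for GALNT15. Their size and order thus depended on 1 control library and on the method, most for SCNN1B. These excesses contain the libraries that chose the genes and were not tested. The single-factor line with the highest level was thus Klf4 for SCNN1B and GALNT15 and Oct4 for AZGP1, and for APLNR the lines did not differ beyond their spread. Sox2 alone was called higher than GFP for none of the 4, in a fit that called 21.7% of genes higher, and Oct4 was called higher for none against all 3 GFP libraries, where 20.1% were called higher. For 4 genes, none called is near these shares and is not read as a result. In Sox2 all 4 were at 0 to 4 reads, where a small rise could not be seen. Which factors OSK needs beside one another was not tested, as lines with a pair of factors are not analysed here.

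Of 28 other genes of the sodium channel list 25 were tested: 7 rose and 5 fell in OSK (19.7% and 20% of all genes), and in Klf4 8 rose and 6 fell (17.6% and 16%). Without GFP replicate 1, 9 rose and 5 fell in OSK. For so few genes, in a list chosen with earlier results of these data known, these counts are not read as a result. The median change of the 25 genes in OSK was 0.07, beside -0.01 over all genes. SCNN1A, the alpha subunit that the channel requires for its main current, was at 119, 56.7 and 55.4 in GFP, 317 and 312 in Klf4, and 143 and 121 in OSK. It rose with Klf4 (2.11, SE 0.38, limma adjusted p = 0.000410) and fell with Sox2 (-2.26, adjusted p = 0.000146), but in OSK its change of 0.86 missed the threshold (adjusted p = 0.0847). The OSK change of SCNN1A was 1.22 (SE 0.34) without GFP replicate 1 and passed (limma adjusted p = 0.00724). SCNN1G, the gamma subunit encoded 61.4 kb from SCNN1B, was below the filter, with 25.8 in GFP replicate 1, at most 1.16 in the other libraries and 0 in both OSK libraries. TSC22D3, known as GILZ, a glucocorticoid- and aldosterone-induced regulator of the channel, averaged 664 ± 135 (SD, n = 3) in GFP and rose 2.08 in OSK (limma adjusted p = 4.91e-09) and 1.68 in Klf4 (adjusted p = 8.88e-08). STK39, a kinase of the WNK pathway of salt transport, rose in all 4 lines, by 1.52 in OSK (limma adjusted p = 1.06e-09). SGK2, a kinase of the SGK family, and HSD11B2, which inactivates cortisol in aldosterone target cells, averaged 6.52 and 4.91 in OSK against 28.5 and 16.9 in GFP. Their calls in OSK (limma adjusted p = 0.00987 and 0.0180) were lost when an OSK library was left out (0.200 without OSK replicate 2 for SGK2, 0.0528 and 0.0972 for HSD11B2).

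Of 32 O-glycan genes other than GALNT15 25 were tested, and 7 rose and 5 fell in OSK (19.7% and 20% of all genes), with a median change of -0.01 and the same counts without GFP replicate 1. With Oct4 12 rose and 5 fell (20.1% and 17.2% of all genes), and with Klf4 5 rose and 3 fell (17.6% and 16%). GALNT12, another enzyme that begins O-glycans, was at 666, 680 and 766 in GFP, 1719 and 1498 in Klf4, and 1488 and 1293 in OSK. It rose with Klf4 (1.19, limma adjusted p = 1.13e-07) and OSK (0.98, adjusted p = 6.34e-07) and fell with Sox2 (-1.74, adjusted p = 7.39e-10), so that the lines had the order of GALNT15 except that OSK lay below Klf4. GALNT18 rose in all 4 lines, by 1.38 in OSK (limma adjusted p = 1.79e-06). GCNT1, which makes the core 2 branch of O-glycans, had 174 and 179 in Oct4, 65.0 and 59.4 in OSK, and 12.1 to 34.8 in GFP. ST6GALNAC3, a sialyltransferase, fell in all 4 lines, by 0.81 in OSK (limma adjusted p = 8.51e-05).

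For the apelin receptor, the ligands did not rise. APLN, which encodes apelin, was below the filter with at most 7.94 in any library, and APELA, which encodes ELABELA, had 2.17 and 5.50 in OSK against 4.86 to 14.2 in GFP (-1.21, limma adjusted p = 0.190). Of 27 other apelin list genes 22 were tested, and 5 rose and 7 fell in OSK (19.7% and 20% of all genes), with a median change of -0.06, and 6 and 7 without GFP replicate 1. ARRB1, an arrestin that binds activated receptors, was at 355, 331 and 363 in GFP, 945 and 964 in Klf4, and 1336 and 1282 in OSK, and rose 1.90 in OSK (limma adjusted p = 2.62e-10). KLF2, a transcription factor of the endothelial response to flow, had 72.5, 87.0 and 59.3 in GFP and 10.8 and 20.9 in OSK, a fall (-2.18, limma adjusted p = 4.50e-05). ADCY5, an adenylyl cyclase, averaged 15.3 in OSK and 36.4 in GFP (limma adjusted p = 0.0255), and MEF2C, a muscle and vascular transcription factor, 55.7 and 29.1 (adjusted p = 0.0418). Both OSK calls were lost under several alternatives, including without GFP replicate 1 (0.0903 and 0.0563) and without OSK replicate 2 (0.251 and 0.148). MEF2C was also lost without either of the other GFP libraries, either Oct4 library or OSK replicate 1, with adjusted p of up to 0.161. Endothelial cells, in which APLNR is best known, have the defining genes PECAM1, CDH5 and VWF. PECAM1 was at 20.9, 0 and 0 in GFP and 11.9 and 3.30 in OSK (1.41, limma adjusted p = 0.384), and CDH5 at 29.8, 2.02 and 0 in GFP and 5.42 and 0 in OSK. VWF was at 73.5, 0 and 1.94 in GFP, 46.3 and 33.1 in Klf4, and 43.4 and 27.5 in OSK (2.56, limma adjusted p = 0.0969). Without GFP replicate 1, OSK was higher for PECAM1 (2.90, SE 0.83, limma adjusted p = 0.00918) and VWF (4.37, SE 0.59, adjusted p = 7.41e-06). These rises were not particular to OSK. In the same fit PECAM1 was called higher in Sox2 (3.96) but not in Oct4 or Klf4. VWF was called higher in Oct4 (2.29), Sox2 (3.05) and Klf4 (4.55). The 10 endothelial markers summed to 574 and 590 in OSK and 1110 to 1548 in GFP, most of it KDR, with none of the 5 tested higher in OSK and 1 lower, or 2 higher and 1 lower without GFP replicate 1. Beside 19.7% and 20% of all genes, counts so small are not read as a result. The part of these markers in the APLNR result was not tested.

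Most tested genes of the class I-like list rose in OSK. The list holds the structural family of AZGP1 and, beside it, B2M, PIP and ADRB3. Of 26 genes other than AZGP1 17 were tested, and 10 rose, B2M among them, and 1 fell in OSK (19.7% and 20% of all genes). PIP and ADRB3 were below the filter. The median change was 0.99 against -0.01 over all genes. The counts in OSK were the same without GFP replicate 1. With Klf4 12 rose (17.6% of all genes) and none fell (median 0.98), or 1 fell without GFP replicate 1, and with Oct4 10 rose (20.1% of all genes) and none fell (0.58). ULBP2, a stress-induced ligand of the natural killer receptor NKG2D, was at 11.9, 2.02 and 7.78 in GFP, 37.2 and 36.6 in Oct4, 18.0 and 22.3 in Sox2, 35.9 and 35.4 in Klf4, and 247 and 224 in OSK. It rose in every line, and its OSK libraries lay far above all others (5.08 over GFP, SE 0.46, limma adjusted p = 2.64e-07), but the rise in Sox2 was lost without Sox2 replicate 2 (adjusted p = 0.0867). RAET1L, of the same ligand family, was at 39.0 and 31.9 in OSK, 12.7 and 11.4 in Klf4, and at most 4.97 elsewhere (4.32, limma adjusted p = 0.00109, and 5.18 without GFP replicate 1). ULBP3 was at 546 and 388 in Klf4 and at 281 and 312 in OSK (2.08 over GFP, limma adjusted p = 4.16e-08). HLA-F and B2M, the light chain of class I molecules, rose with OSK by 2.36 (limma adjusted p = 5.53e-09) and 1.59 (adjusted p = 1.05e-09). The HLA and the ULBP and RAET1 genes have close copies, and reads could be split between them, so their separate values are uncertain.

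**Figure D3:**
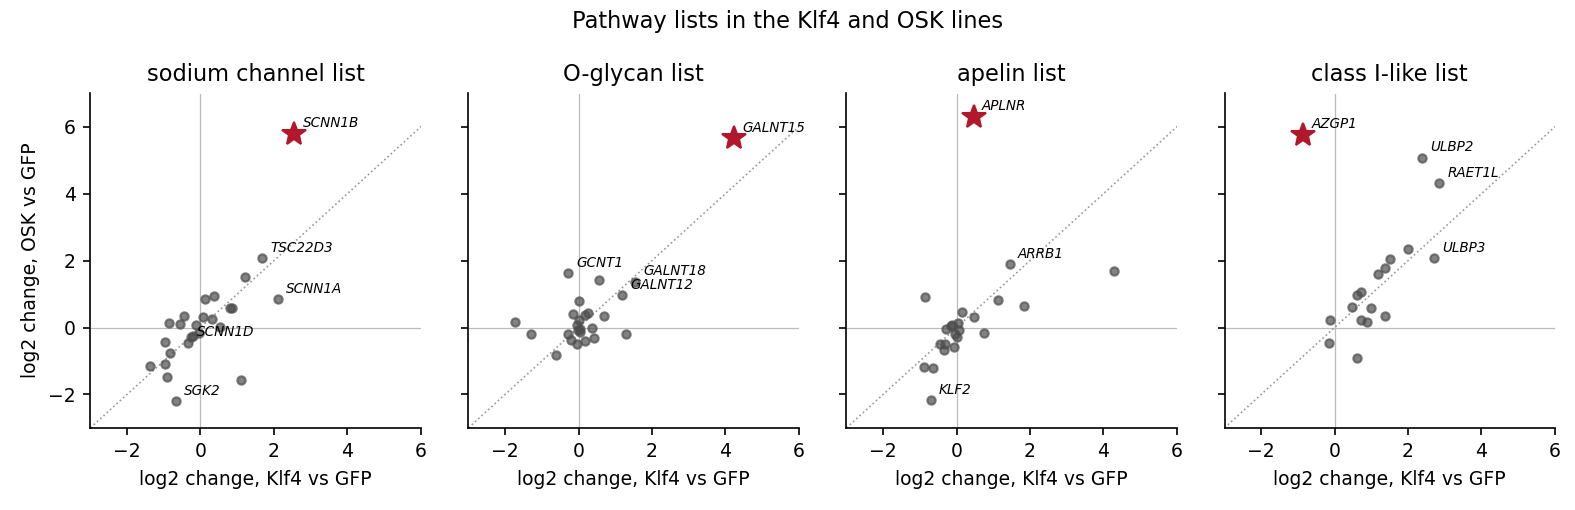
Log2 change from GFP in Klf4 (horizontal) and in OSK (vertical), which share the GFP libraries, for the tested genes of the 4 lists, 1 point per gene, with a star for the member and a dotted line where both changes are equal. The star is the highest point of each panel, closest to the line for GALNT15 and farthest from it for APLNR and AZGP1.

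No tested marker of the distal nephron and secretory epithelium, of pluripotent cells or of RPE was called higher in OSK, with or without GFP replicate 1. Over all genes 19.7% were called higher and 20% lower in OSK, and 20.9% higher without GFP replicate 1. Each list had few tested markers and was chosen with earlier results of these data known, so none called higher is not read as a result. Of 10 distal nephron and secretory epithelium markers 7 were tested, and none rose and 3 fell in OSK, their sum being 276 and 290 in OSK and 518 to 640 in GFP, and AQP2, the collecting duct water channel, and PIP, a secretory protein, were at 0 in both OSK libraries. Of 8 pluripotent markers 6 were tested, and none rose and 3 fell in OSK (1 without GFP replicate 1), with sums of 346 and 471 against 527 to 714 in GFP. NANOG, a core pluripotency factor, was at 8.67 and 12.1 in OSK and 14.2 to 16.9 in GFP. Of 12 RPE markers 10 were tested, and none rose and 9 fell in OSK, with sums of 15811 and 16115 against 33430 to 37122 in GFP. The part of this fall in the rise of the 4 genes was not tested.

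Genes with the most similar profile were taken for each member by Pearson r of log2(value + 1) over the 11 libraries, which share groups of 2 and 3, so r is a description. APLNR was closest to TP73, a p53 family transcription factor (r = 0.977), LINC02582 (0.965) and MS4A2, the beta chain of the IgE receptor of mast cells (0.961). TP73 was at 446 and 394 in OSK and at most 20.9 in every other library. MS4A2 was at 129 and 123 in OSK and at most 4.97 elsewhere, the same pattern of a single group above a low floor. AZGP1 was closest to ASTN1 (0.971), LRRC7 (0.962) and SLC35A5 (0.959), whose ranges were narrower: LRRC7 had 775 and 770 in OSK and 161 to 358 elsewhere. GALNT15 was closest to ARRB1 (0.989), FLVCR2 (0.983) and PLEKHA6 (0.982), and FLVCR2 had 583 and 554 in Klf4 and 722 and 674 in OSK against 57.4 to 87.4 in GFP. SCNN1B was closest to SIRLNT (0.957), CARMIL3 (0.944) and ESYT3 (0.940), and CARMIL3 was at 87.4 in GFP replicate 1 and 22.4 to 26.3 in the other 2 GFP libraries.

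Protein-coding genes near the 4 members, within 150 kb on either side, were examined after the values were seen. Of 26 neighbours 19 were tested, and 8 rose and 4 fell in OSK (19.7% and 20% of all genes), and nothing is read from these counts. TNKS1BP1, a tankyrase-binding protein encoded 62.4 kb from APLNR, had 4914 to 5295 in GFP, 4335 and 4352 in Oct4, 4276 and 4530 in Sox2, 12002 and 10661 in Klf4, and 22553 and 19762 in OSK. It rose 2.03 in OSK (SE 0.08, limma adjusted p = 1.59e-11) and 1.13 in Klf4 (adjusted p = 1.28e-08), while APLNR itself did not pass in Klf4. P2RX3, an ATP-gated channel 98.7 kb from APLNR, was at 58.5 and 28.6 in OSK, 30.8, 1.01 and 0 in GFP and at most 1.16 in the single-factor lines (3.39, limma adjusted p = 0.0348), a call lost in 11 of 21 alternatives. It was 4.89 above GFP without GFP replicate 1. Without GFP replicate 2, GFP replicate 3, OSK replicate 1 or OSK replicate 2 its adjusted p was 0.0970 to 0.224. Next to GALNT15, DPH3, a diphthamide synthesis gene 8.84 kb away, rose 0.62 in OSK (limma adjusted p = 0.000126), and RFTN1, a lipid raft protein, fell by 0.60 (adjusted p = 0.000436). Next to SCNN1B, COG7, a Golgi transport gene 7.20 kb away, had a change of 0.25 (limma adjusted p = 0.0794), and SCNN1G was not detected in OSK. The 2 nearest tested neighbours of AZGP1 were ZKSCAN1 with a change of -0.04 (limma adjusted p = 0.652) and TRIM4 with a rise of 0.40 (adjusted p = 0.000436).

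**Figure D4:**
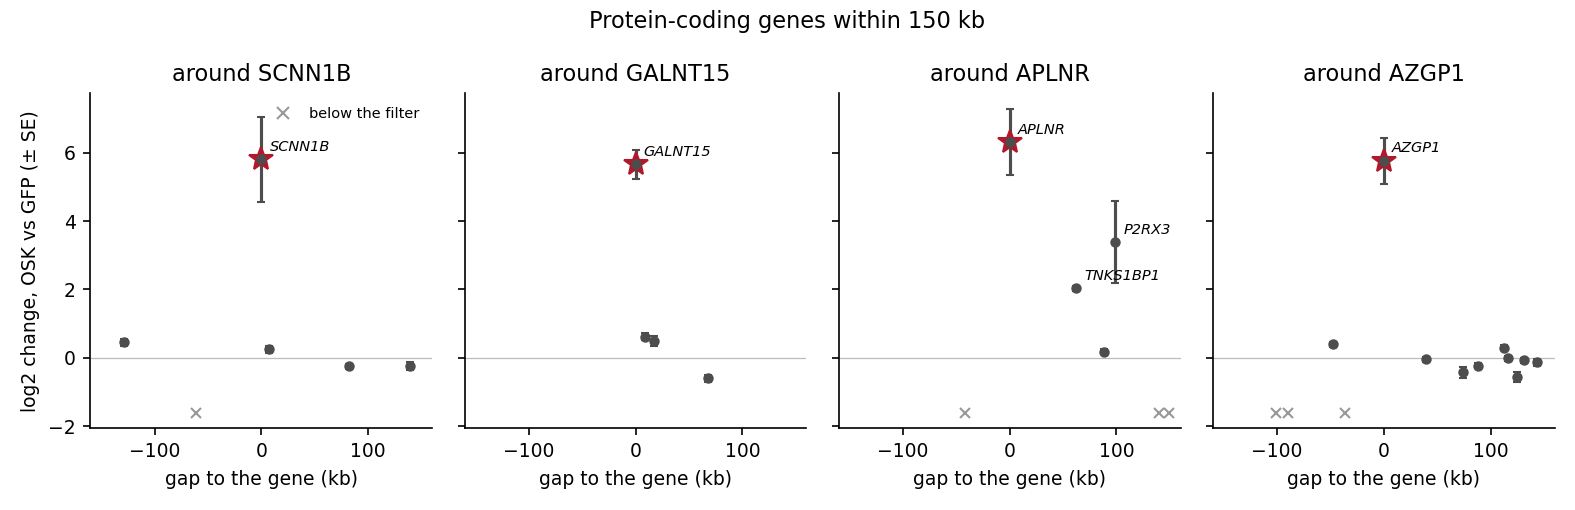
Log2 change of OSK from GFP (mean and SE of the fit) for each member (star) and its tested neighbours (points), against the gap to the member in kb, with crosses at the foot for genes below the filter. Each member lies far above its neighbours, and TNKS1BP1 and P2RX3 near APLNR are the neighbours above 2.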

How the data were processed

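PolyA RNA-seq was analysed from 11 ARPE-19 libraries grouped by sample title. The deposited table holds a signal in normalised counts, taken here to be read counts divided by 1 factor per library. Dividing by the value of 1 read gave whole numbers for 100% of the values no larger than 200 in each library (tolerance 0.0061), so reads were recovered. The submitters' processing notes name STAR 2.7.1a, featureCounts 1.6.2 and the builds GRCh38 and GRCm38, with no roles. The annotation, use of strand and scaling are not given in the sources used here.

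limma 3.58.1 (R 4.3.3; lmFit, eBayes with trend) was fitted to log2(value + 1) with all 11 libraries and 1 mean per group, for the 18828 genes reaching 10 in 2 or more libraries. P-values were Benjamini-Hochberg adjusted over these, at 0.05. The fit was also run on simulated counts with known changes. Those changes were only in genes with higher counts, and no simulated library had extra features. The simulation therefore does not cover the members' low levels or GFP replicate 1. Contrasts of OSK with the single-factor lines chose the genes and carry no p-value, and the members' OSK changes from GFP, which share those OSK libraries, are likewise given without one. The members' p-values between single-factor lines, and of those lines against GFP, also use libraries that chose the genes and are descriptive. Groups with at most 3 reads in each library entered folds at 3 reads. edgeR 4.0.16 and DESeq2 1.42.0 were run on recovered reads as alternatives, beside other pseudocounts, other filters, only the compared groups, a replicate block and each library left out in turn. Besides the members and the delivered genes, the rule for named genes took from each list close family members or ligands and up to 4 genes with the largest called OSK change, and the 3 genes most correlated with each member that had a mean of at least 10 in OSK. Neighbouring genes and B2M were named after their values were seen. Positions come from GENCODE release 29 (GRCh38) by symbol. The members and all lists were chosen with earlier results of these data known.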

Additional observations from a re-analysis of the deposited data

How the results depend on the processing

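Values are log2 changes. The members' OSK values were above GFP in all 21 alternatives, though SCNN1B by 3.85 with a wide SE of 2.17 with DESeq2. GALNT15 in Oct4 missed the threshold with DESeq2 (-1.74), edgeR TMM (-1.69), edgeR with median-of-ratios factors (-1.7) and only the compared groups in the fit (-1.31), which also lost GALNT15 in Sox2 (-1.49). APLNR in Klf4, not called, turned negative with edgeR TMM (-0.50), median-of-ratios factors (-0.51), DESeq2 (-0.53) and the replicate block (-0.35), and APLNR in Sox2 turned positive with a pseudocount of 0.25 (0.26). Without GFP replicate 1 and OSK replicate 1 together, calls were gained for SCNN1B in Klf4 (4.31) and AZGP1 in Oct4 (2.33), and lost for GALNT15 in Oct4 (-0.86) and Sox2 (-1.03). Values that were not called turned positive there for SCNN1B in Oct4 (0.44) and Sox2 (0.051), APLNR in Oct4 (0.58) and Sox2 (0.96) and AZGP1 in Sox2 (0.20). The cause of these changes was not tested.

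Leaving out 1 library at a time gave, against GFP, ranges for SCNN1B of -2.60 to 0.44 in Oct4, -2.99 to 0.051 in Sox2 and 1.28 to 4.31 in Klf4. They were -1.55 to -0.86 in Oct4 and -1.73 to -1.03 in Sox2 for GALNT15. For APLNR they were -1.63 to 0.58 in Oct4, -0.99 to 0.96 in Sox2 and -0.35 to 1.6 in Klf4, and for AZGP1 0.87 to 2.33 in Oct4 and -1.26 to 0.20 in Sox2. Between Oct4 and Sox2 they were -0.85 to 1.63 (SCNN1B), -0.035 to 0.38 (GALNT15) and -1.46 to 0.70 (APLNR), and for Klf4 -0.061 to 2.10 against Oct4 (APLNR) and -0.52 to 0.10 against Sox2 (AZGP1).

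With the replicate block, OSK was above GFP by 4.52 for SCNN1B and 5.49 for APLNR, and no single-factor call of a member against GFP changed. Among the named genes MEF2C and P2RX3 lost their OSK call with it. Same-numbered libraries deviated together at both numbers in 1 of 10 pairs of groups, GFP and OSK (correlations 0.435 and 0.310). The labels do not say that the numbers pair libraries, so the fit without the block was kept. Counts of genes changed stayed within 1.5 times in all alternatives. Levels of 0 to 4 reads limit what could be seen of APLNR in single-factor lines.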
